A study of Amphimedon queenslandica with 124 samples.

Results

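The 100 gene models described here, of 36868 in the count table, stood high in free-swimming larvae of the demosponge Amphimedon queenslandica and in 3 individuals at settlement, and lower at 9 other stages. They were chosen by their measured levels. Counts were turned into log2(CPM + 1), where CPM is a count per 1000000 counts of the library, and averaged by stage over the libraries numbered 1 to 100 up to the free-swimming larva and over those numbered 101 to 124 from settlement on. A member had free-swimming and settlement means within 1 log2 unit of each other. Its margin, the lower of those 2 means minus the highest mean among cleavage, brown, cloud, spot, mat-formation, chamber-formation, tent-pole-formation, juvenile and adult, was among the 100 largest. Of 32133 gene models that met the first condition, 476 had a margin above 0.

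The libraries are CEL-seq libraries, which count the 3' ends of polyadenylated RNA, each from a single individual of the Great Barrier Reef (Heron Island), with no treatment named in the labels and staged by its form. A stage label was present for 123 individuals, with 7 in each of the embryo stages (cleavage, brown, cloud, spot, late spot, and the earlier and later ring stages, called ring and late ring). The swimming larvae number 13. There are 10 individuals labelled settlement, 34 labelled mat-formation, 3 chamber-formation, 6 tent-pole-formation, 5 juvenile and 3 adult. Of the individuals at settlement, 7 are numbered 1 to 100 and 3 are numbered 101 to 124, and the labels do not say how the 2 sets of numbers differ. Library totals ran from 1158 to 3059409 counts, with a median of 642197. They were 617279 to 1694159 at late ring, 174505 to 981293 in larvae, 17429 to 300386 in the settlement libraries numbered 1 to 100 and 1274507 to 1598006 in those numbered 101 to 124.

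Embryos of this sponge are brooded in chambers of the mother. Pigmented cells gather at the posterior pole of the embryo as a cloud, then a spot and then a ring, and the ring persists in the ciliated larva, where it takes part in swimming away from light. After a free-swimming period the larva settles, flattens into a mat and is rebuilt through chamber and tent-pole forms into a filter-feeding juvenile. Many larval cells change identity or are lost during this metamorphosis. The gene models carry identifiers only, and the reference table matched 0 of them, so no role or sequence is given for any member.

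The rule did not use late spot, ring, late ring or any library numbered 1 to 100 from settlement on. In those data the members showed a pair of features. The first concerns the timing of a rise that the rule required between spot and the larva. In the fits of the 2 stages compared, the level of most members that could be tested rose at late ring, before the larva is released. In a fit of all stages together, 38 of 100 members rose at late ring against ring, beside 1.12% of 19342 gene models. At settlement in the libraries numbered 1 to 100, most of them were far below their larval level, so that the description of the set as kept through settlement holds in the 3 libraries that chose it and not in the other 7. Tissue composition was not measured, and fewer cells of a type and less RNA per cell cannot be told apart in libraries of whole individuals.

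The share of a library's counts that fell in the 100 members gives the pattern for each individual. The share was 0.515% ± 0.0900 at cleavage (SD, n = 7), 0.732% ± 0.225 at brown (n = 7), 0.793% ± 0.0709 at cloud (n = 7) and 0.937% ± 0.225 at spot (n = 7). It was 1.33% ± 0.522 at late spot, 1.96% ± 0.836 at ring and 6.81% ± 1.35 at late ring (SD, n = 7 each). In free-swimming larvae it was 8.94% ± 1.60 (SD, n = 13). The larvae, at 6.45% to 11.7%, overlapped with the 7 late ring libraries, at 4.74% to 8.06%. The late ring libraries did not overlap with the 7 ring libraries, at 1.43% to 3.77%.

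At settlement the share was 1.67% ± 0.884 in the libraries numbered 1 to 100 (SD, n = 7) and 7.08% ± 0.142 in those numbered 101 to 124 (SD, n = 3). Each of the first 7 libraries lay below every larva and below each of the other 3 settlement libraries. From mat-formation on the share was low in both sets. It was 0.839% ± 0.341 (SD, n = 25) at mat-formation in the libraries numbered 1 to 100 and 1.15% ± 0.291 (SD, n = 9) in those numbered 101 to 124. At chamber-formation it was 0.830% ± 0.112 (SD, n = 3), and in adults 0.615% ± 0.0283 (SD, n = 3), both numbered 101 to 124.

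**Figure D1:**
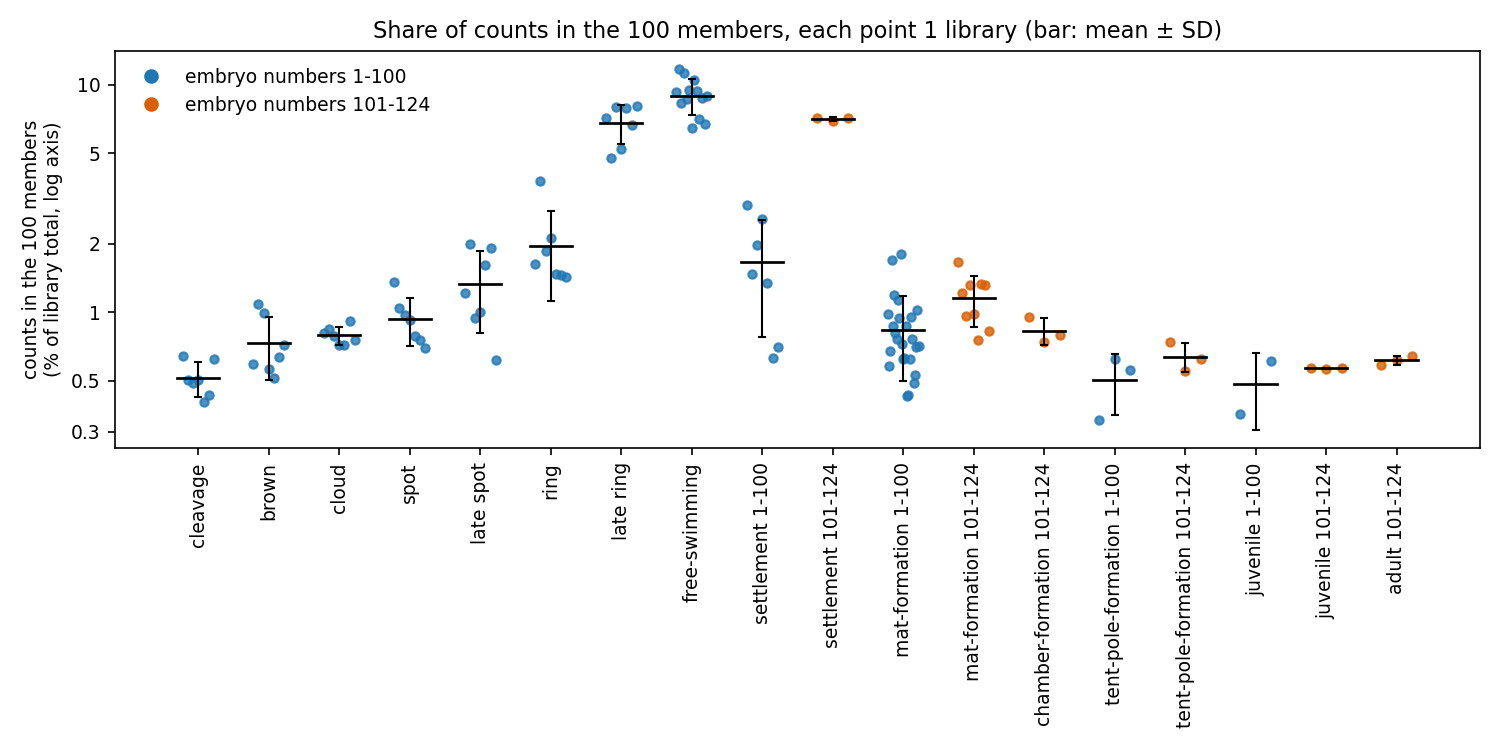
Share of each library's counts that fell in the 100 members (percent, log axis) by stage, with 1 point per individual, a horizontal bar for the mean and error bars for the SD, and with stages from settlement on split by the embryo numbers in the labels. The 7 settlement libraries numbered 1 to 100 lie between 0.630% and 2.95%, below the 3 numbered 101 to 124, at 6.91% to 7.16%, and the share reaches 4.74% to 8.06% at late ring.

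A few members carried much of the share. In larvae the members' mean levels ran from 7.51 to 29432 CPM with a median of 307 CPM. The mean was at least 1000 CPM for 18 members, at least 100 CPM for 74 and under 50 CPM for 18. The 10 most abundant members held 61.5% of the members' summed CPM in larvae, and Aqu2.1.34371_001 alone averaged 29432 ± 14802 CPM (SD, n = 13). Without Aqu2.1.34371_001 the share was 5.42% ± 1.22 at late ring (SD, n = 7), 6.00% ± 0.865 in larvae (SD, n = 13), 1.45% ± 0.760 at settlement in the libraries numbered 1 to 100 (SD, n = 7) and 5.60% ± 0.659 in those numbered 101 to 124 (SD, n = 3). The order of these groups did not rest on the most abundant member.

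Margins ran from 5.61 log2 units for Aqu2.1.35944_001 and 5.38 for Aqu2.1.21081_001 to 1.02 and 1.01 for the members ranked 99 and 100, Aqu2.1.36837_001 and Aqu2.1.22928_001. The next gene models outside the set, Aqu2.1.34623_001 and Aqu2.1.20504_001, had margins of 1.00 and 0.98. The highest of the 9 other stages was mat-formation for 41 members, spot for 19, cloud for 9, adult for 8, juvenile for 7, cleavage for 6, chamber-formation for 4, brown for 3 and tent-pole-formation for 3. For the largest group of members the stage that came closest was thus the one just after settlement.

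The rule required a rise between spot and the larva. In the fits of the 2 stages compared, most members tested had risen by late ring. Late ring was tested against ring and against late spot with edgeR's quasi-likelihood test, and a Benjamini-Hochberg adjusted p under 0.05 over all gene models tested counted as called. Against ring, 88 members had enough counts to be tested, and 51 rose at late ring and 0 fell. Of all 4817 gene models tested, 6.04% rose and 4.26% fell, 10.3% together. The median log2 fold change was 1.85 over the members tested and -0.01 over all gene models tested. It was above 0 for 82 of the 88 members.

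Against late spot, 84 members were tested, and 63 rose at late ring and 0 fell. Of all 4535 gene models tested, 9.5% rose and 10.4% fell, 19.9% together. The median log2 fold change was 2.59 over the members tested and -0.06 over all, and it was above 0 for 83 of the 84 members. Both comparisons use the same 7 late ring libraries, and 50 members were called in both. The members left untested, 12 against ring and 16 against late spot, averaged 7.51 to 331 CPM in larvae. Because the filter can pass a member through late ring alone, the counts describe the members tested and not the whole set. The rule set no level at late ring, ring or late spot, but it chose genes that were high in the next stage, the larva. It also chose genes that were lower at spot, the stage before late spot. A rise somewhere between spot and the larva was thus set by the rule, and the comparisons only place it within that span.

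**Figure D2:**
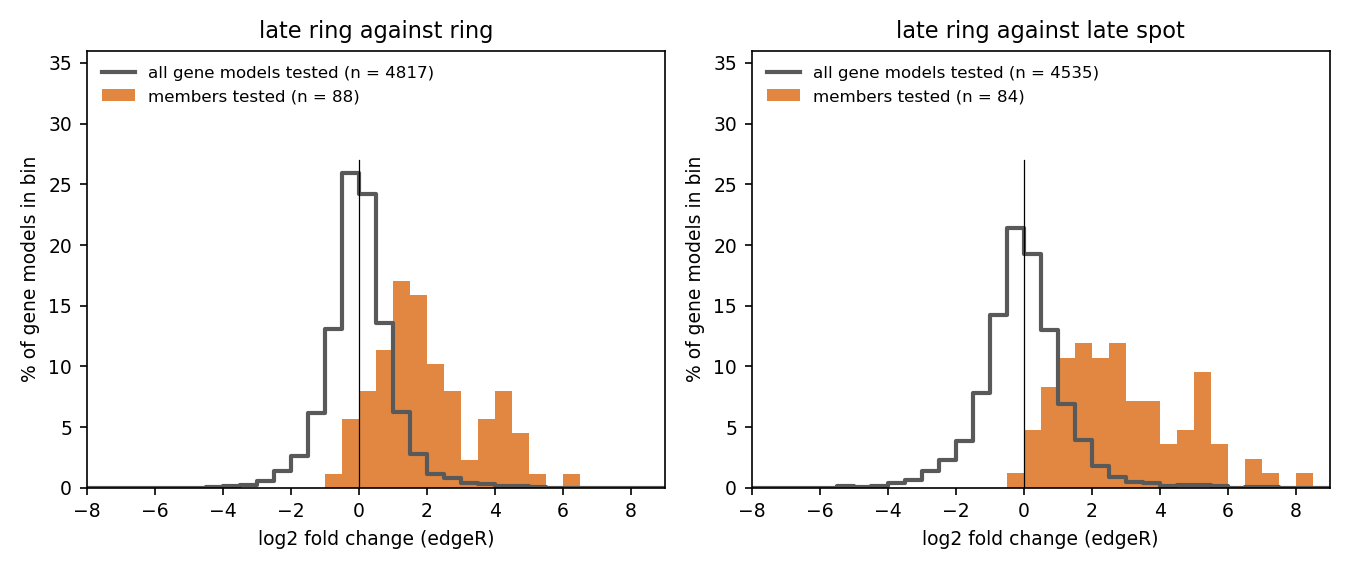
Distribution of log2 fold changes (edgeR) for late ring against ring and for late ring against late spot, as the percent of gene models in each bin. Filled bars are the members tested and the line is all gene models tested, and the members' medians of 1.85 and 2.59 lie above those of all gene models, at -0.01 and -0.06.

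The highest fold changes in both comparisons belonged to Aqu2.1.26961_001 and Aqu2.1.24545_001. Aqu2.1.26961_001 had a lowest, median and highest level of 180, 735 and 1644 CPM at late ring, against 4.03, 7.26 and 35.0 CPM at ring. The 7 late ring individuals did not overlap with the 7 at ring, and the log2 fold change was 6.31 (SE 0.71, edgeR adjusted p = 0.000105) and 6.97 without ring replicate 2, the highest at ring. Larvae had 378, 832 and 1281 CPM, a range that overlaps with that of late ring. Against late spot, where the level was 0 to 8.18 CPM, the log2 fold change was 8.13 (SE 0.80, edgeR adjusted p = 3.38e-06).

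Aqu2.1.24545_001 had a lowest, median and highest level of 55.5, 182 and 303 CPM at late ring, against 0, 1.45 and 21.3 CPM at ring. The groups did not overlap, and the log2 fold change was 5.31 (SE 0.78, edgeR adjusted p = 0.000583) and 6.73 without ring replicate 2. At late spot the level was 0 to 27.2 CPM, with no count in 4 of the 7 libraries. The log2 fold change of late ring against late spot was 7.05 (SE 0.97, edgeR adjusted p = 0.000125), a fitted value that depends on how counts of 0 are treated, and 8.48 without late spot replicate 2, the highest there.

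The 2 most abundant members in larvae rose at the same step. Aqu2.1.34371_001 had a lowest, median and highest level of 5884, 12514 and 25535 CPM at late ring, against 246, 1075 and 5858 CPM at ring. The lowest late ring individual lay just above the highest ring individual, and the log2 fold change was 3.12 (SE 0.60, edgeR adjusted p = 0.00359). Aqu2.1.23869_001 had 665, 3554 and 6854 CPM at late ring, against 46.6, 123 and 527 CPM at ring. These groups did not overlap either, and the log2 fold change was 4.60 (SE 0.66, edgeR adjusted p = 0.000556).

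The 2 members with the largest margins rose too, while the member with the third largest, Aqu2.1.21083_001, was not called (log2 fold change 1.32, edgeR adjusted p = 0.0645). Aqu2.1.35944_001 had a lowest, median and highest level of 23.2, 195 and 645 CPM at late ring, against 0, 20.9 and 85.1 CPM at ring. The groups overlapped, and the log2 fold change was 3.68 (SE 0.78, edgeR adjusted p = 0.00781). Aqu2.1.21081_001 had 180, 470 and 1456 CPM at late ring, against 60.0, 138 and 316 CPM at ring, also with overlap, and a log2 fold change of 1.91 (SE 0.49, edgeR adjusted p = 0.0193).

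At the other end of the called members were small changes. Aqu2.1.31807_001 had a lowest, median and highest level of 1084, 2821 and 3875 CPM at late ring, against 668, 1466 and 1800 CPM at ring. The log2 fold change was 1.01 (SE 0.32, edgeR adjusted p = 0.0497), and without ring replicate 2 it was 1.08 and no longer called. Aqu2.1.08966_001 had 45.3, 74.5 and 114 CPM at late ring, against 22.9, 33.0 and 53.2 CPM at ring, with a log2 fold change of 1.12 (SE 0.30, edgeR adjusted p = 0.0255). Both pairs of groups overlapped.

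Against late spot the smallest called changes were those of Aqu2.1.23372_001 and Aqu2.1.35208_001. Aqu2.1.23372_001 had a lowest, median and highest level of 248, 336 and 410 CPM at late ring, against 122, 138 and 309 CPM at late spot. The groups overlapped, and the log2 fold change was 0.95 (SE 0.29, edgeR adjusted p = 0.0265). Aqu2.1.35208_001 had 1533, 1676 and 2696 CPM at late ring, against 411, 843 and 1304 CPM at late spot. Here the groups did not overlap, and the log2 fold change was 1.17 (SE 0.32, edgeR adjusted p = 0.0150).

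Among the 7 ring libraries, replicate 2 had the highest share of counts in the members, at 3.77%, and the other 6 had 1.43% to 2.12%. In that library 41 members were within 1 log2 unit below the larval mean or above it, against 15 to 30 in the other 6. Without it, 54 members rose at late ring against ring and 0 fell, beside 6.04% and 4.06% of the 4931 gene models then tested, with a median log2 fold change of 2.05 over the members tested. Without the late spot library of lowest total, 63 members rose against late spot and 0 fell, beside 9.61% and 9.13% of 4754 gene models.

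Set against the larval mean, most members were near the larval level at late ring, but a smaller share of them than of all gene models with counts in larvae. At late spot 10 of the 100 members were within 1 log2 unit of the larval mean and 90 were lower by more. At ring 19 were within 1 log2 unit, 79 were lower and 2 were higher. At late ring 72 were within 1 log2 unit, 22 were lower and 6 were higher. The median difference from the larval mean was -2.95 at late spot, -2.27 at ring and -0.43 at late ring. Of the 4713 gene models with at least 10 CPM in larvae, a list that includes 95 of the members, 57.0%, 62.8% and 80.3% were within 1 log2 unit of the larval mean at these 3 stages. At late ring 15.6% of the 4713 were lower by more than 1 log2 unit. Since the larvae chose the members, these counts are a description with no test.

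By this measure 10 members were within 1 log2 unit of larvae or above them by late spot, 13 first at ring and 56 first at late ring. The remaining 21 were still more than 1 log2 unit below larvae at all 3 stages. At late ring 29 members had a higher mean than in larvae. The same counts were not taken over all gene models, so they describe the members only.

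**Figure D3:**
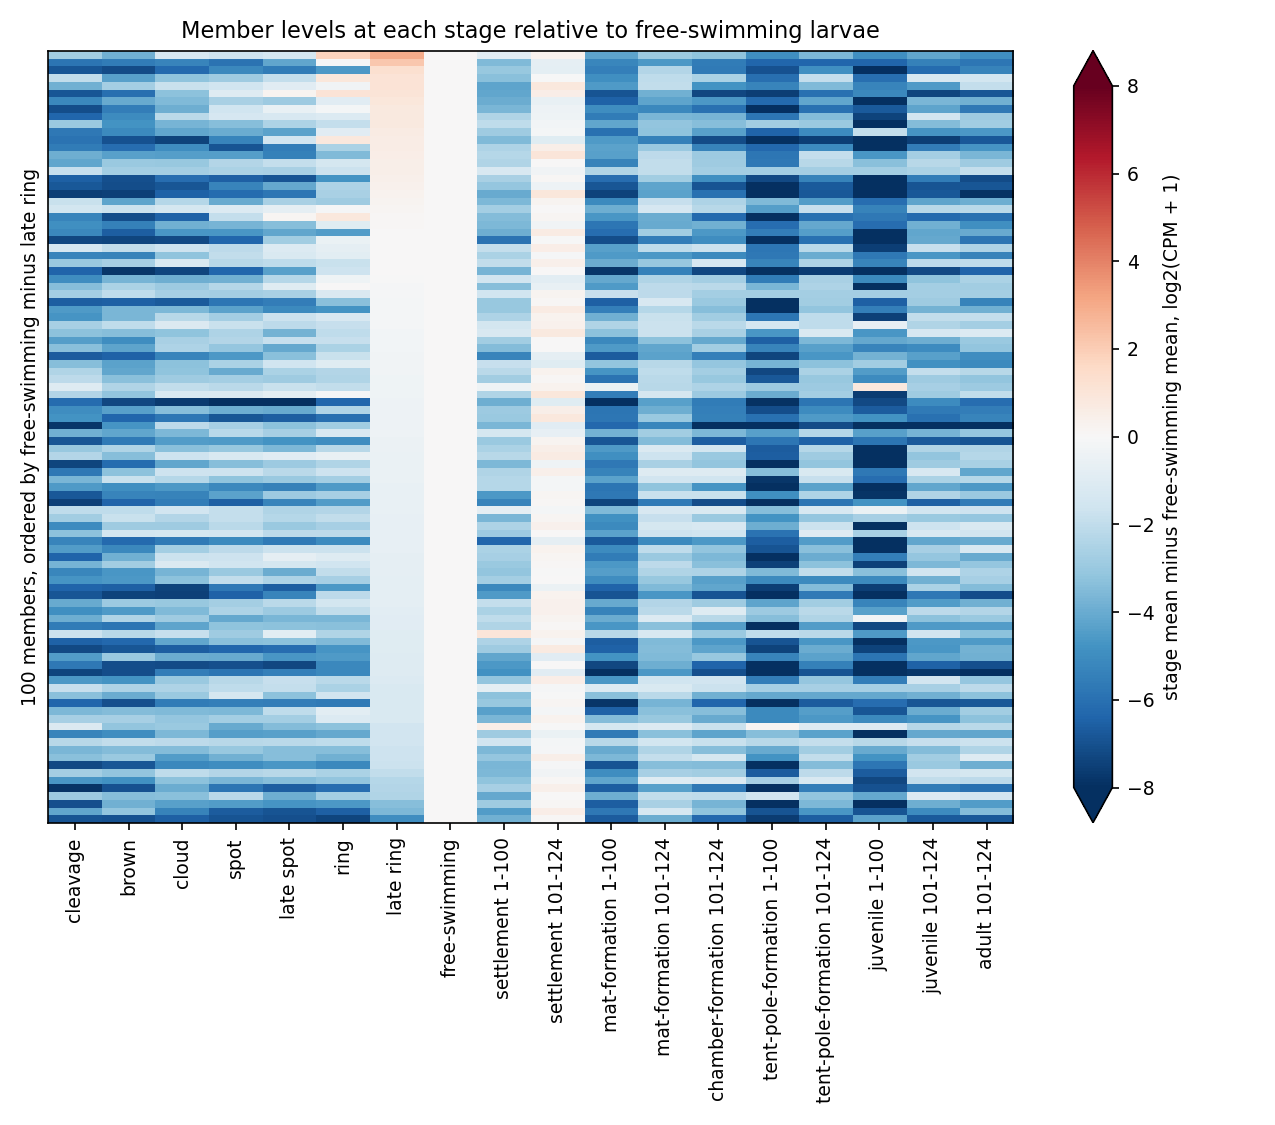
Mean log2(CPM + 1) of each of the 100 members at each stage minus its mean in free-swimming larvae (colour, in log2 units, with values beyond 8 shown at the end of the scale), with 1 row per member. Rows run from members highest at late ring relative to larvae, at the top, to the 22 members more than 1 log2 unit lower there, at the bottom, and the column for settlement in libraries 101-124 is close to 0 by the rule while that for libraries 1-100 is below -1 for 94 members.

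The members with the extreme differences between larvae and late ring show the range of timing. Aqu2.1.28458_001 had a lowest, median and highest level of 2.33, 28.7 and 85.1 CPM in larvae, against 16.2, 482 and 806 CPM at late ring. It was thus highest before release, and 1 of the 7 late ring libraries lay within the larval range. At ring it already had 17.5, 105 and 957 CPM, and late ring against ring was not called (log2 fold change 0.97, SE 0.81, edgeR adjusted p = 0.504). Late ring against late spot was called, with a log2 fold change of 4.30 (SE 0.85, edgeR adjusted p = 0.00184).

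Aqu2.1.00630_001 had a lowest, median and highest level of 22.9, 88.8 and 186 CPM in larvae, against 16.2, 531 and 1416 CPM at late ring. Its ring level of 8.71 to 1138 CPM spanned most of that range, and late ring against ring was not called (log2 fold change 1.49, SE 0.88, edgeR adjusted p = 0.312). Against late spot the log2 fold change at late ring was 5.38 (SE 0.95, edgeR adjusted p = 0.000964).

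Aqu2.1.16428_001 and Aqu2.1.24880_001 were the latest to come up. Aqu2.1.16428_001 had a lowest, median and highest level of 45.9, 162 and 926 CPM in larvae, against 0, 4.86 and 347 CPM at late ring, where 3 of the 7 libraries had no count of it. Aqu2.1.24880_001 had 16.9, 177 and 362 CPM in larvae, against 0, 15.1 and 112 CPM at late ring, where 2 libraries had none. It had no count in any late spot library and reached 2.52 CPM at most at ring. Both were under the count filter of the late ring comparisons. The larvae and the late ring embryos overlapped for both members.

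**Figure D4:**
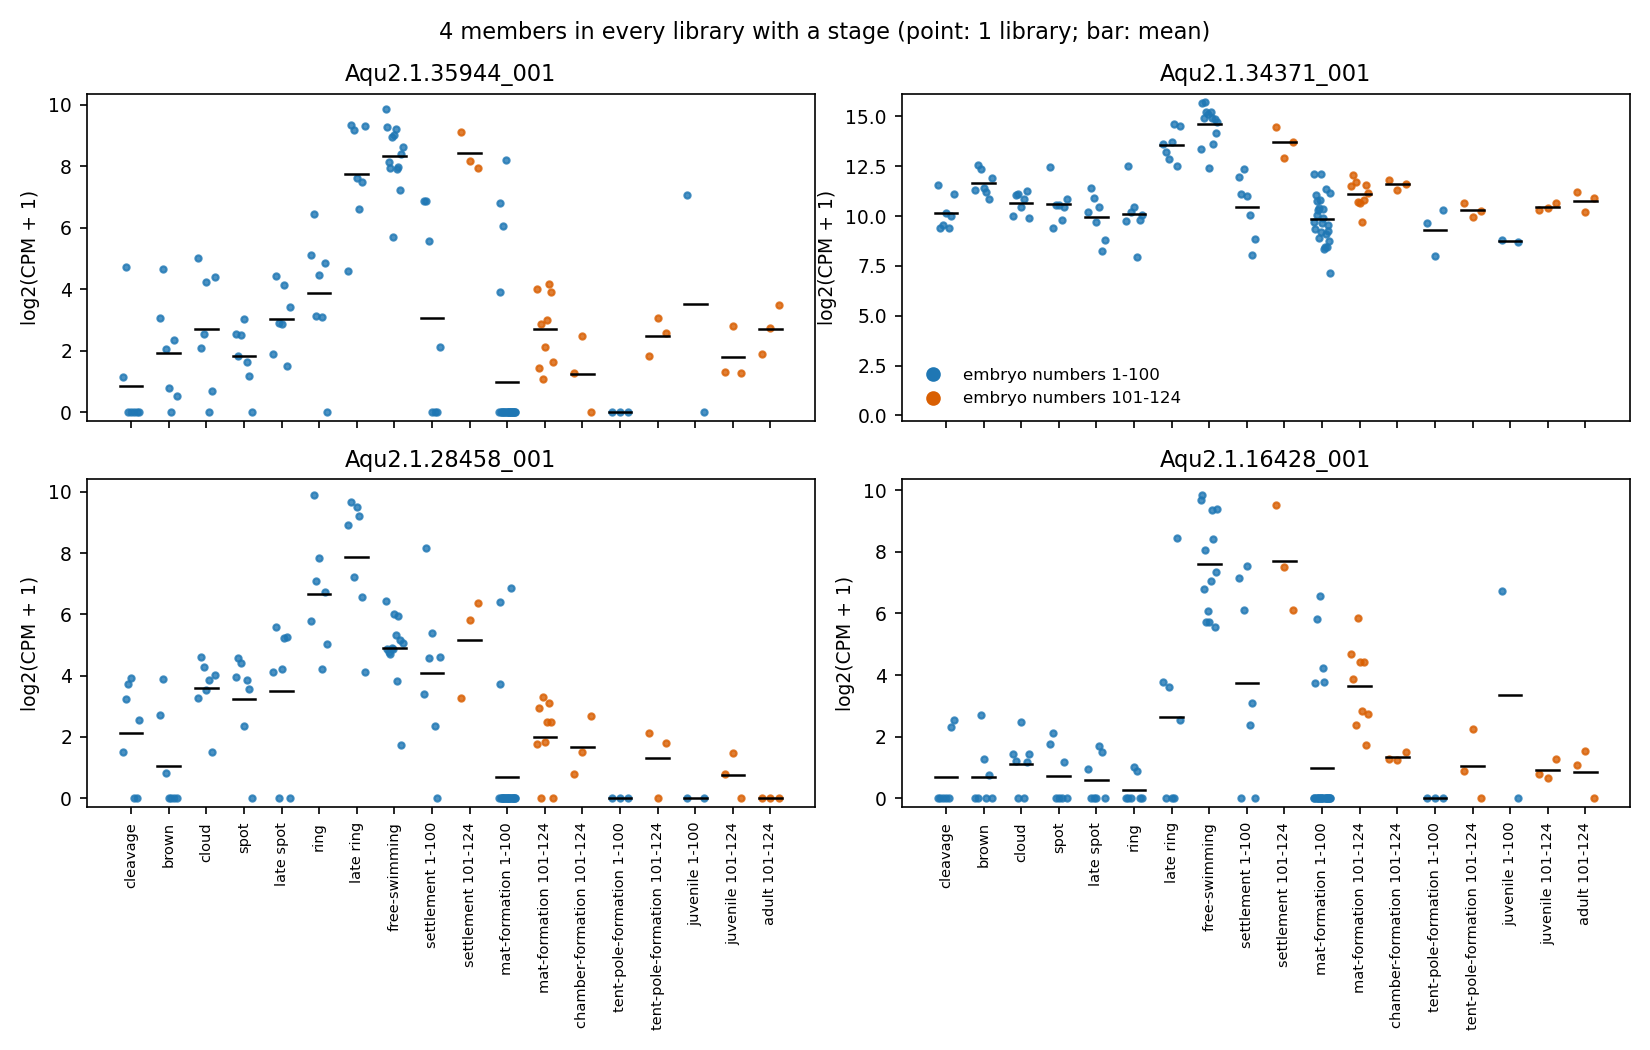
Levels of 4 members in every library with a stage, as log2(CPM + 1), with 1 point per individual and a bar for the mean, and with embryo numbers 1-100 and 101-124 in separate colours. Aqu2.1.35944_001 has the largest margin and Aqu2.1.34371_001 the highest larval level, Aqu2.1.28458_001 is higher at late ring than in larvae, and Aqu2.1.16428_001 has no count in 3 of the 7 late ring libraries.

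At settlement the set split by library number. In the 7 libraries numbered 1 to 100, 6 of the 100 members were within 1 log2 unit of the larval mean, 94 were lower by more and 0 were higher by more. The median difference from larvae was -2.94, with a range from -6.31 to 0.95. In the 3 libraries numbered 101 to 124, which the rule used, all 100 were within 1 log2 unit by construction, with a median difference of 0.08. Of the 4713 gene models with at least 10 CPM in larvae, 39.8% were within 1 log2 unit of the larval mean in the settlement libraries numbered 1 to 100 and 53.3% were lower by more, with a median difference of -1.11. No test was made, since the larvae chose the members.

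Depth differed between the 2 sets of settlement libraries, and a mean of log2 values is low where counts are few. In the libraries numbered 1 to 100, 56 to 91 of the members had a count, against all 100 in each library numbered 101 to 124. In the 4 of the 7 libraries that hold at least 100000 counts, 7 members were within 1 log2 unit of larvae and 93 were lower by more, with a median difference of -3.07 and -0.79 over the 4713 gene models. With the counts of the 7 libraries pooled, 10 members were within 1 log2 unit, 88 were lower and 2 were higher. The pooled median difference was -2.19 over the members and -0.23 over the 4713 gene models. A gap to larvae was seen in these 4 libraries and in pooled counts. The 4 hold 134529 to 300386 counts, fewer than any settlement library numbered 101 to 124, and the part of depth was not tested.

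Individual by individual, the 7 settlement libraries numbered 1 to 100 had shares in the members of 2.95%, 1.48%, 1.97%, 2.57%, 1.35%, 0.630% and 0.707%. Their totals were 207222, 17429, 43665, 48720, 241456, 134529 and 300386 counts. The highest share and the lowest 2 shares all came from libraries of over 100000 counts, and a relation of share to depth was not tested. The 3 libraries numbered 101 to 124 had 7.16%, 6.91% and 7.16%. In the first set 43, 16, 20, 33, 12, 14 and 7 members were within 1 log2 unit below the larval mean or above it, against 85, 93 and 92 in the second set.

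Groups that do not overlap were counted among the 95 members with at least 10 CPM in larvae. For 29 of them every settlement library numbered 1 to 100 lay below every larva, as for 2.44% of the 4713 gene models. For 56 of them every settlement library numbered 1 to 100 lay below each of the 3 numbered 101 to 124, as for 9.72% of the 4713. For 1 of them every settlement library numbered 101 to 124 lay below every larva, as for 1.34% of the 4713. The rule used the larvae and the libraries numbered 101 to 124, so nothing is read from these counts beyond the levels.

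Aqu2.1.34371_001 had 3972, 2180, 5199, 2073, 1052, 260 and 456 CPM in the 7 settlement libraries numbered 1 to 100, against 22866, 7652 and 13610 CPM in the 3 numbered 101 to 124. In larvae it ran from 5521 through a median of 30567 to 53901 CPM. All 7 of the first set lay below every larva, while the 3 of the second lay within the larval range. Aqu2.1.23869_001 had 1535, 344, 481, 2176, 522, 134 and 243 CPM in the first set, against 4483, 3912 and 5900 CPM in the second and 2507 to 7276 CPM in larvae. Again none of the first 7 reached the lowest larva.

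Aqu2.1.35944_001 had 116, 115, 45.8, 0, 0, 0 and 3.33 CPM in the settlement libraries numbered 1 to 100, against 554, 288 and 244 CPM in those numbered 101 to 124. The larvae ran from 50.6 to 932 CPM, and 2 of the 7 reached that range, 1 of them with a level that rests on 2 counts. Aqu2.1.21081_001 had 77.2, 0, 68.7, 185, 33.1, 29.7 and 36.6 CPM in the first set, against 265, 551 and 653 CPM in the second. All 7 lay below the lowest larva, at 202 CPM.

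By mean CPM, 6 members were higher at settlement in the libraries numbered 1 to 100 than in larvae. By mean log2 level 2 members were higher there, and these 2 are named here after their values were seen. Aqu2.1.19549_001 averaged 774 ± 635 CPM (SD, n = 7) there, against 442 ± 42.2 CPM in the settlement libraries numbered 101 to 124 (SD, n = 3) and 471 ± 155 CPM in larvae (SD, n = 13). Aqu2.1.23474_001 averaged 71.1 ± 77.8 CPM (SD, n = 7), against 30.5 ± 17.5 CPM (SD, n = 3) and 30.8 ± 28.7 CPM (SD, n = 13). Their spread between the 7 libraries was as large as the difference from larvae or larger.

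**Figure D5:**
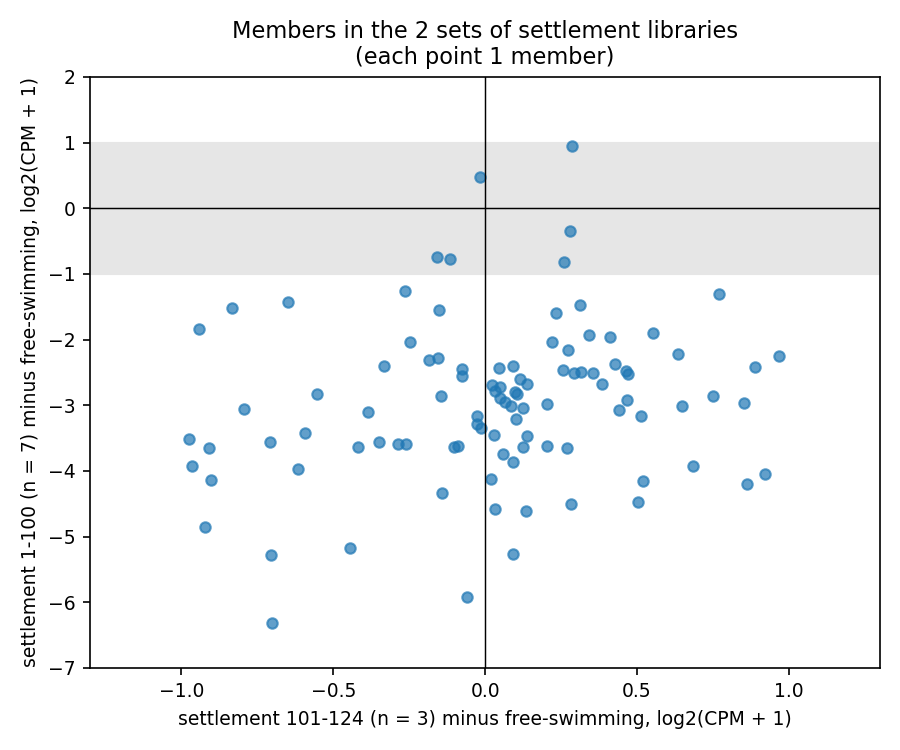
Mean log2(CPM + 1) at settlement minus the mean in free-swimming larvae for each of the 100 members, in the 7 libraries numbered 1 to 100 (vertical axis) and in the 3 numbered 101 to 124 (horizontal axis), with 1 point per member and a grey band within 1 log2 unit of larvae. All points lie within 1 log2 unit on the horizontal axis by the rule, and 94 lie below the grey band.

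The number set, the depth and any difference between the individuals themselves cannot be told apart at settlement, as no stage label separates the 2 sets. Had the rule taken its settlement mean from the 7 libraries numbered 1 to 100, 235 gene models would have had a margin above 0, and 6 of the 100 members would have been among the 100 largest. With all 10 settlement libraries, 297 would have had a margin above 0, with 9 of the members among the 100 largest. Both of these counts were added after the data were seen. When 1 of the 3 settlement libraries numbered 101 to 124 was left out at a time, 84 to 89 members were chosen again.

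After settlement the libraries numbered 1 to 100 allow tests that the rule did not use, but few members had the counts for them. At mat-formation against settlement, 15 members were tested and 0 were called by edgeR, with 5 at an unadjusted p under 0.05, and DESeq2 called 2, both lower. Of all 692 gene models tested, edgeR called 1.45%, all lower at mat-formation, and DESeq2 called 2.89% lower and 1.88% higher. The median log2 fold change was -1.08 over the members and -0.07 over all, and it was below 0 for 14 of the 15 members. Without the filter on low counts 13 of 100 members fell in edgeR, beside 1.69% of 27624 gene models. In an edgeR fit of all stages together 43 of 100 members fell and 0 rose, beside 5.07% of 19342 gene models lower and 0.548% higher. With the library total as a covariate 0 of 15 members were called, beside 0% of 692 gene models. In libraries of at least 100000 counts 0 of 41 members were called, beside 0% of 2822 gene models. The number of calls thus depended on the fit.

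The member nearest to the threshold at mat-formation was Aqu2.1.23869_001. It had a lowest, median and highest level of 0, 89.4 and 580 CPM at mat-formation (25 libraries), against 134, 481 and 2176 CPM at settlement (7 libraries). The groups overlapped, and the log2 fold change was -2.29 (SE 0.65, edgeR adjusted p = 0.0526).

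At tent-pole-formation against settlement in the same number set, 21 members were tested and 0 were called by edgeR, with 9 at an unadjusted p under 0.05, and DESeq2 called 5, all lower. Of all 832 gene models edgeR called 0.24%, all higher at tent-pole-formation, while DESeq2 called 6.85% lower and 1.32% higher. The median log2 fold change was -1.89 over the members and -0.49 over all. For juveniles against settlement 32 members were tested and 0 were called by edgeR, with 12 at an unadjusted p under 0.05, and DESeq2 called 5, all lower. Of all 1310 gene models edgeR called 0.153%, all higher in juveniles, while DESeq2 called 2.29% lower and 0.916% higher. The median log2 fold change was -2.87 over the members and -0.61 over all. An edgeR fit of all stages together called 13 members lower at tent-pole-formation and 4 lower in juveniles, beside 1.28% and 0.222% of 19342 gene models. These 3 comparisons share the 7 settlement libraries.

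Library totals in these comparisons were low, at 1158 to 235043 counts at mat-formation, 16097 to 31360 at tent-pole-formation and 21359 to 38188 in juveniles, and the part of depth in the number of calls was not tested. Recovery was also taken in simulated counts with the same group sizes, over only those changed genes that passed the count filter again there. At mat-formation against settlement these were 41, 40 and 38 genes changed 2-fold, 4-fold and 8-fold. The edgeR test recovered 19.5%, 40.0% and 63.2% of them, and recovery over all changed genes would be lower. It recovered 4.0%, 10.4% and 46.9% at tent-pole-formation against settlement and 0%, 1.89% and 16.7% for juveniles against settlement. For late ring it recovered 6.15%, 66.1% and 98.1% against ring and 5.08%, 75.9% and 96.5% against late spot.

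Within the libraries numbered 101 to 124, where the rule used both stages, the members' share at mat-formation was 1.15% ± 0.291 (SD, n = 9), against 7.08% ± 0.142 at settlement (SD, n = 3). The 9 mat-formation libraries had shares of 1.67%, 1.21%, 0.965%, 1.32%, 0.981%, 0.760%, 1.33%, 1.32% and 0.832%, all below each settlement library. In pooled counts, settlement in the libraries numbered 1 to 100 lay between mat-formation in those numbered 101 to 124 and larvae for 72 members. The rule set that mat-formation level below larvae for every member, and the comparison crosses the 2 sets of numbers. No share over all gene models was taken, so nothing is read from this count.

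How evenly individuals of a stage expressed the members differed between stages and sets of libraries. The median SD of log2(CPM + 1) over the members was 0.71 in larvae, 0.96 at late ring, 0.43 at settlement in the libraries numbered 101 to 124 and 2.41 in those numbered 1 to 100. Over the 4713 gene models with at least 10 CPM in larvae it was 0.82, 0.79, 0.40 and 2.39. The wide spread in the settlement libraries numbered 1 to 100 was thus not particular to the members by these medians, which were not tested.

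Of the members, 16 carry identifiers whose numbers are at most 2 apart, in 7 runs. The sources used here do not say that numbers follow position in the genome, and reads of near-identical copies could be shared between such gene models, so their levels are uncertain to that extent. A run of 3, Aqu2.1.34370_001, Aqu2.1.34371_001 and Aqu2.1.34372_001, contains the most abundant member. In larvae these averaged 521 ± 157, 29432 ± 14802 and 223 ± 160 CPM (SD, n = 13). The other run of 3, Aqu2.1.22411_001, Aqu2.1.22412_001 and Aqu2.1.22413_001, averaged 192 ± 40.6, 37.0 ± 17.3 and 19.8 ± 11.7 CPM in larvae (SD, n = 13). Within each of these runs at least 1 pair differed by more than the SD between larvae.

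Neighbours could differ in timing. Aqu2.1.28458_001 averaged 36.0 ± 22.0 CPM in larvae (SD, n = 13), against 408 ± 320 CPM at late ring (SD, n = 7). Its neighbour Aqu2.1.28459_001 averaged 46.3 ± 31.6 CPM in larvae, against 44.3 ± 32.4 CPM at late ring. Aqu2.1.16427_001 averaged 1253 ± 698 CPM in larvae, against 1008 ± 944 CPM at late ring, whereas Aqu2.1.16428_001 averaged 331 ± 323 CPM in larvae, against 53.7 ± 130 CPM at late ring.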

How the data were processed

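Each library is from a single individual, staged by morphology and kept in RNAlater, and its RNA was isolated with TRIzol and sequenced by CEL-seq, per the labels' protocols. Bowtie2 2.1.0, HTSeq 0.5.4p3 and CASAVA 1.8 are named in the submitters' processing notes. The genome build, the tools' settings and whether molecular identifiers were counted are not stated in these sources. Values in the deposited table are raw counts of each gene model (whole numbers), which the authors did not normalize. It was held in part, as it ends within its last line, and 36868 complete gene models were used, 3867 of them with no count. Columns of other series numbered 0. A library without a stage label entered no comparison.

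The members, lists and tests were chosen with earlier results of these data known. Gene lists by function could not be applied, because 0 identifiers matched the reference table. Counts were scaled to CPM by library total, with a pseudocount of 1. Fits of the stages compared were made in R 4.3.3 with edgeR 4.0.16 (TMM, quasi-likelihood test, filterByExpr with min.count 10 and min.total.count 15, two-sided), with Benjamini-Hochberg adjustment over all gene models tested. DESeq2 1.42.0 was an alternative, besides other scaling, no filter, library total as a covariate, libraries of at least 100000 counts and a fit of all stages together. The p-values rest on how individuals of a stage vary. The edgeR step was tested on simulated data with at most 200 changed genes per comparison, and changed genes that failed the filter there were not scored. Python 3.11.15, numpy 2.4.6, pandas 2.3.3 and matplotlib 3.10.9 were used for the rest. No pair of libraries held identical values.

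Members named are the 2 with the largest margin, the 2 most abundant in larvae, the 2 at each end of the difference between larvae and late ring, and, in each tested comparison, the 2 with the highest and the 2 with the lowest log2 fold change among called members that averaged 10 CPM or more in the higher stage. Others are said to be named after their values were seen, or belong to the threshold or to runs of identifiers. Replicate numbers follow accession order within a stage and pair nothing.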

Additional observations from a re-analysis of the deposited data

Results flagged for a closer look

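In 78 groups of 4 to 10 libraries, the highest or lowest value stood apart from the rest by Dixon's test in 6, and chance gives about 1 in 20 groups. Ring replicate 2 had 3.77% of its counts in the members, the highest of the 7 ring libraries, and also the highest level of Aqu2.1.26961_001 at ring, at 5.17 log2(CPM + 1). Settlement replicate 2, a library of 17429 counts, had 0 log2(CPM + 1) of Aqu2.1.21081_001 and 0 of Aqu2.1.23372_001, the lowest of the 7 settlement libraries numbered 1 to 100. Late ring replicate 7 had the lowest level of Aqu2.1.00630_001 at late ring, at 4.10 log2(CPM + 1). Late spot replicate 2 had the highest level of Aqu2.1.24545_001 at late spot, at 4.82 log2(CPM + 1).

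The library without a stage label had 0.966% of its counts in the members, which is 223 of 23082 counts over 55 members. A count of 0 would have allowed a share of up to 0.013% (3 counts, counting error only).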

How the results depend on the processing

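The counts of members that rose at late ring kept within 1.5 times under the alternatives run, at 38 to 60 against ring and 62 to 73 against late spot. The share of all gene models tested that rose moved more, from 1.12% to 9.13% against ring and from 2.65% to 14.0% against late spot. The number of members tested also changed, from 88 to 100 and from 84 to 100. The fit of all stages together tested all 100 members and called 38 higher against ring and 62 against late spot. Beside these, 1.12% and 2.65% of 19342 gene models were called higher. After settlement the main edgeR fit, of the 2 stages compared, called 0 members in each comparison. DESeq2 called 2 at mat-formation, 5 at tent-pole-formation and 5 in juveniles, and an edgeR fit of all stages together called 43, 13 and 4. Without the filter on low counts edgeR called 13 at mat-formation. Without 1 replicate at a time, edgeR called 0 to 0 at tent-pole-formation and 0 to 0 in juveniles, where a lone juvenile was assumed to vary like the settlement libraries, and 84 to 89 of the members were chosen again. Chosen again were 6 with the settlement libraries numbered 1 to 100 in the rule and 9 with all 10, compared with 78 with stage medians, 86 with TMM scaling and 86 with log2(CPM + 10). Members within 1 log2 unit of larvae at settlement in libraries 1 to 100 numbered 6, compared with 11 on log2(CPM + 10) and 10 with pooled counts. The share in those libraries was 1.41% to 2.06% under the alternatives. Aqu2.1.31807_001 and Aqu2.1.08966_001 (late ring against ring) and Aqu2.1.23372_001 and Aqu2.1.35208_001 (late ring against late spot) were not called without the filter or in the fit of all stages, with the same direction, and Aqu2.1.31807_001 also not with the library total as a covariate. The causes were not tested. Tent-pole-formation and juveniles gave no value with libraries of at least 100000 counts, since none reaches it. No paired analysis was possible because the replicate numbers follow accession order only.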
